A study of Mus musculus with 8 samples.

Results

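The interferon regulatory factors (IRFs) are transcription factors that bind GAAA repeats in DNA, and 8 of their genes (Irf1, Irf2, Irf3, Irf4, Irf5, Irf7, Irf8 and Irf9) were taken as a named list out of 21887 mouse protein-coding genes. For each gene, the peaks of lactylated histone H4 lysine 12 (H4K12la) that touched its RefSeq span plus 2 kb on both sides by at least 1 base were collected. CUT&Tag, an assay in which an antibody tethers a transposase to marked chromatin, had been run on brain without cerebellum. The 8 libraries form 4 groups of 2. Total dissociated cells and microglia purified with CD11b beads were each taken from WT and from 5XFAD mice. 5XFAD mice carry mutated human transgenes driven by a Thy1 promoter, which is active mainly in neurons, so that they model amyloid deposition. The labels give no age, sex or treatment, and do not say whether libraries came from separate or pooled animals, so p-values measure only the spread between these samples. CD11b beads can also bind other myeloid cells.

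IRF proteins share an amino-terminal DNA-binding domain and act in innate immunity. Irf3, Irf5 and Irf7 are switched on by phosphorylation downstream of pathogen sensors and drive type I interferon and cytokine genes, while Irf9 joins STAT proteins to carry the interferon signal to the nucleus. Irf1 is itself induced by interferon gamma and Irf2 can compete with it. Irf8 and Irf4 are lineage factors that pair with Spi1 (PU.1), and Irf8 is required for microglial development. H4K12la is a histone mark made with lactate-derived acyl groups.

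The lists held 22300 to 41783 peaks in microglia and 22543 to 32967 in total cells, and 42.4% to 56.1% of coding genes had a peak in their window in each library. Microglial peaks were wider throughout the genome, with a median width of 580 to 735 bp against 287 to 366 bp in total cells. Read depth is unknown from peak lists, so a gene without a peak is one where none was listed. Of 8 microglial marker genes, 6 had a peak in all 4 microglia libraries, and the 2 others, Tmem119 and C1qa, had one in 2 and 3 of them. Of 6 markers of other leukocytes, Cd3e, Ccr2, S100a9 and Cd163 had none in any library, and at most 1 had one in a microglia library. The neuronal markers Snap25, Slc17a7 and Gad1 and the oligodendrocyte marker Olig2 had no peak in any library, total cells included, while Map2 had one in all 4 total cell libraries and 1 microglia library. Rbfox3 (neurons), Slc1a3 (astrocytes), Mag (oligodendrocytes) and Pecam1 (vascular cells) had a peak in all 4 microglia libraries.

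The 8 genes differed in whether the mark lay on the promoter, and promoter sequences of RefSeq (GRCm38.p6), from 250 bases before to 50 after the start site, are shown for 6 of them. All 8 genes matched the promoter table, Irf1, Irf8 and Irf9 with 2 start sites each. The promoters of Irf3 (chr7:44997398-44997697, plus strand), Irf4 (chr13:30748983-30749282, plus strand) and Irf9 (chr14:55603735-55604034, plus strand) were touched by peaks in 6, 6 and 5 libraries. They hold no match to the motifs searched. At Irf9, the peak of WT 1 microglia (score percentile 3.77) began 44 bp after the start site and reached only the end of the sequence.
Irf3 promoter: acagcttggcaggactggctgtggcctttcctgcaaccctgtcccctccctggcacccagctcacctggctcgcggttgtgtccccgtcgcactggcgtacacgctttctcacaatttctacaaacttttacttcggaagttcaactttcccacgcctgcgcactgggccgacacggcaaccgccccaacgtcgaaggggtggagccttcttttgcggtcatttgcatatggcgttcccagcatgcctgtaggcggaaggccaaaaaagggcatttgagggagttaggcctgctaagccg
Irf4 promoter: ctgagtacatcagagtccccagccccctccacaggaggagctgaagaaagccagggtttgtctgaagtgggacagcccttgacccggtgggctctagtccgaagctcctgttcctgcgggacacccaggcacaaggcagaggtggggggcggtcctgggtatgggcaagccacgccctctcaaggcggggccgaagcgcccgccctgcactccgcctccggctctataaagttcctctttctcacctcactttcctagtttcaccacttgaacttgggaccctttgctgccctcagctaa
Irf9 promoter: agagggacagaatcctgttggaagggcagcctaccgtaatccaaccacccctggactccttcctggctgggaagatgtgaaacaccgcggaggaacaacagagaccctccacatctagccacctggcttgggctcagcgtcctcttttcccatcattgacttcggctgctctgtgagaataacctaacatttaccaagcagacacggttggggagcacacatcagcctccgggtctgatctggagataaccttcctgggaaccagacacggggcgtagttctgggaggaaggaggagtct

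The promoters of Irf8 (chr8:120736108-120736407, plus strand), Irf1 (chr11:53769764-53770063, plus strand) and Irf2 (chr8:46739495-46739794, plus strand) are shown because they hold motif matches, in capitals, with little or no listed mark. Peaks touched the Irf1 sequence in 1 library, microglia of 5XFAD 2, and the Irf8 and Irf2 sequences in none.
Irf8 promoter: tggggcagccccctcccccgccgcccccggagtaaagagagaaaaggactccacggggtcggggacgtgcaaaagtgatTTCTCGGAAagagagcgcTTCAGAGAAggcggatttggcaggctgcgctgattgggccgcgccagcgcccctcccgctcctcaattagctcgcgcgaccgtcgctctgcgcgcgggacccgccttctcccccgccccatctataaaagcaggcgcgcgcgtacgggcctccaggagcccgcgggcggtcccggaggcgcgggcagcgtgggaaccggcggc
Irf1 promoter: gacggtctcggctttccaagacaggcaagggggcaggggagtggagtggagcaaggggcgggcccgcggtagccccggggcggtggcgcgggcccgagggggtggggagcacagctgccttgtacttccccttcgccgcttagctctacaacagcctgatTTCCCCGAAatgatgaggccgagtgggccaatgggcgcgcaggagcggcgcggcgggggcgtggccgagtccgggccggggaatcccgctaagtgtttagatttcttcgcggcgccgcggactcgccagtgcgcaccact
Irf2 promoter: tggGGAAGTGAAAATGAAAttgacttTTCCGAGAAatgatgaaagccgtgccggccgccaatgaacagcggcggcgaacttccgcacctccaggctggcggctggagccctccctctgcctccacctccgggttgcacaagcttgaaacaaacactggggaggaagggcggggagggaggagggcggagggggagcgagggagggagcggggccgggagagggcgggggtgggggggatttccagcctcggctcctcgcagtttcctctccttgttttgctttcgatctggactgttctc

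Both strands of the promoters were searched for a STAT site, TTCNNNGAA, which is its own reverse complement, for the core of the interferon-stimulated response element, which is GAAA, any 2 bases and GAAA, and for an ETS-IRF composite site, which is GGAA, any 2 bases and GAAA. Of 32851 promoters of this length in the table, 8.3%, 3.44% and 2.72% hold them. The STAT motif occurs at -90 to -82 bp from the Irf1 start site, at -171 to -163 and -153 to -145 bp at Irf8 and at -224 to -216 bp at Irf2. The Irf2 promoter also holds GAAAATGAAA at -241 to -232 bp and, overlapping it, GGAAGTGAAA at -247 to -238 bp. A match is a run of letters and not a measured site. The promoters of Irf5 and Irf7 hold no match and had no peak in any library, like 53.1% of 17492 coding genes with a promoter in the table. A peak on a promoter window in at least 1 library was found for 4 of 8 genes (Irf1, Irf3, Irf4 and Irf9), against 46.9%. One in all 4 microglia libraries was found for Irf4 and Irf9, 2 of 8 genes, against 19.7% of those coding genes. The Irf8 promoter has a G and C content of 70% with 38 CpG dinucleotides, against a median of 52.7% and 7 over all promoters in the table. It is thus CpG-rich without a listed peak. So are the promoters of Irf5 (74.67%, 35 CpG), Irf2 (62.67%, 19) and the second Irf1 start site (75%, 43).

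A peak was listed in all 8 libraries for Irf2 and Irf9, 2 of 8 genes, against 26.7% of all coding genes, and 6 of 8 genes had one in all 4 microglia libraries, against 39.0% of all. Irf2, Irf7 and Irf9, 3 of 8, had one in all 4 total cell libraries, against 33.0%. No member lacked a peak everywhere, which 34.0% of coding genes did, and none had one in all 4 total cell and no microglia library, which 0.982% did. The 151 peaks fell into 37 merged regions, of which 29 lay inside a gene, 3 on a start site, 3 upstream and 2 downstream. Irf2, whose span of 107.714 kb is far longer than the 3.317 to 20.337 kb of the others, held 18 of these regions. Regions found in 1 library were 7 of 37, against 37.9% of all 73355 merged regions of the genome, and 1 of 37 was in all 8, against 7.19%. Peaks at these genes were wider in microglia (median 616 bp of 100 peaks) than in total cells (median 328 bp of 51 peaks), as over the whole lists.

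**Figure D1:**
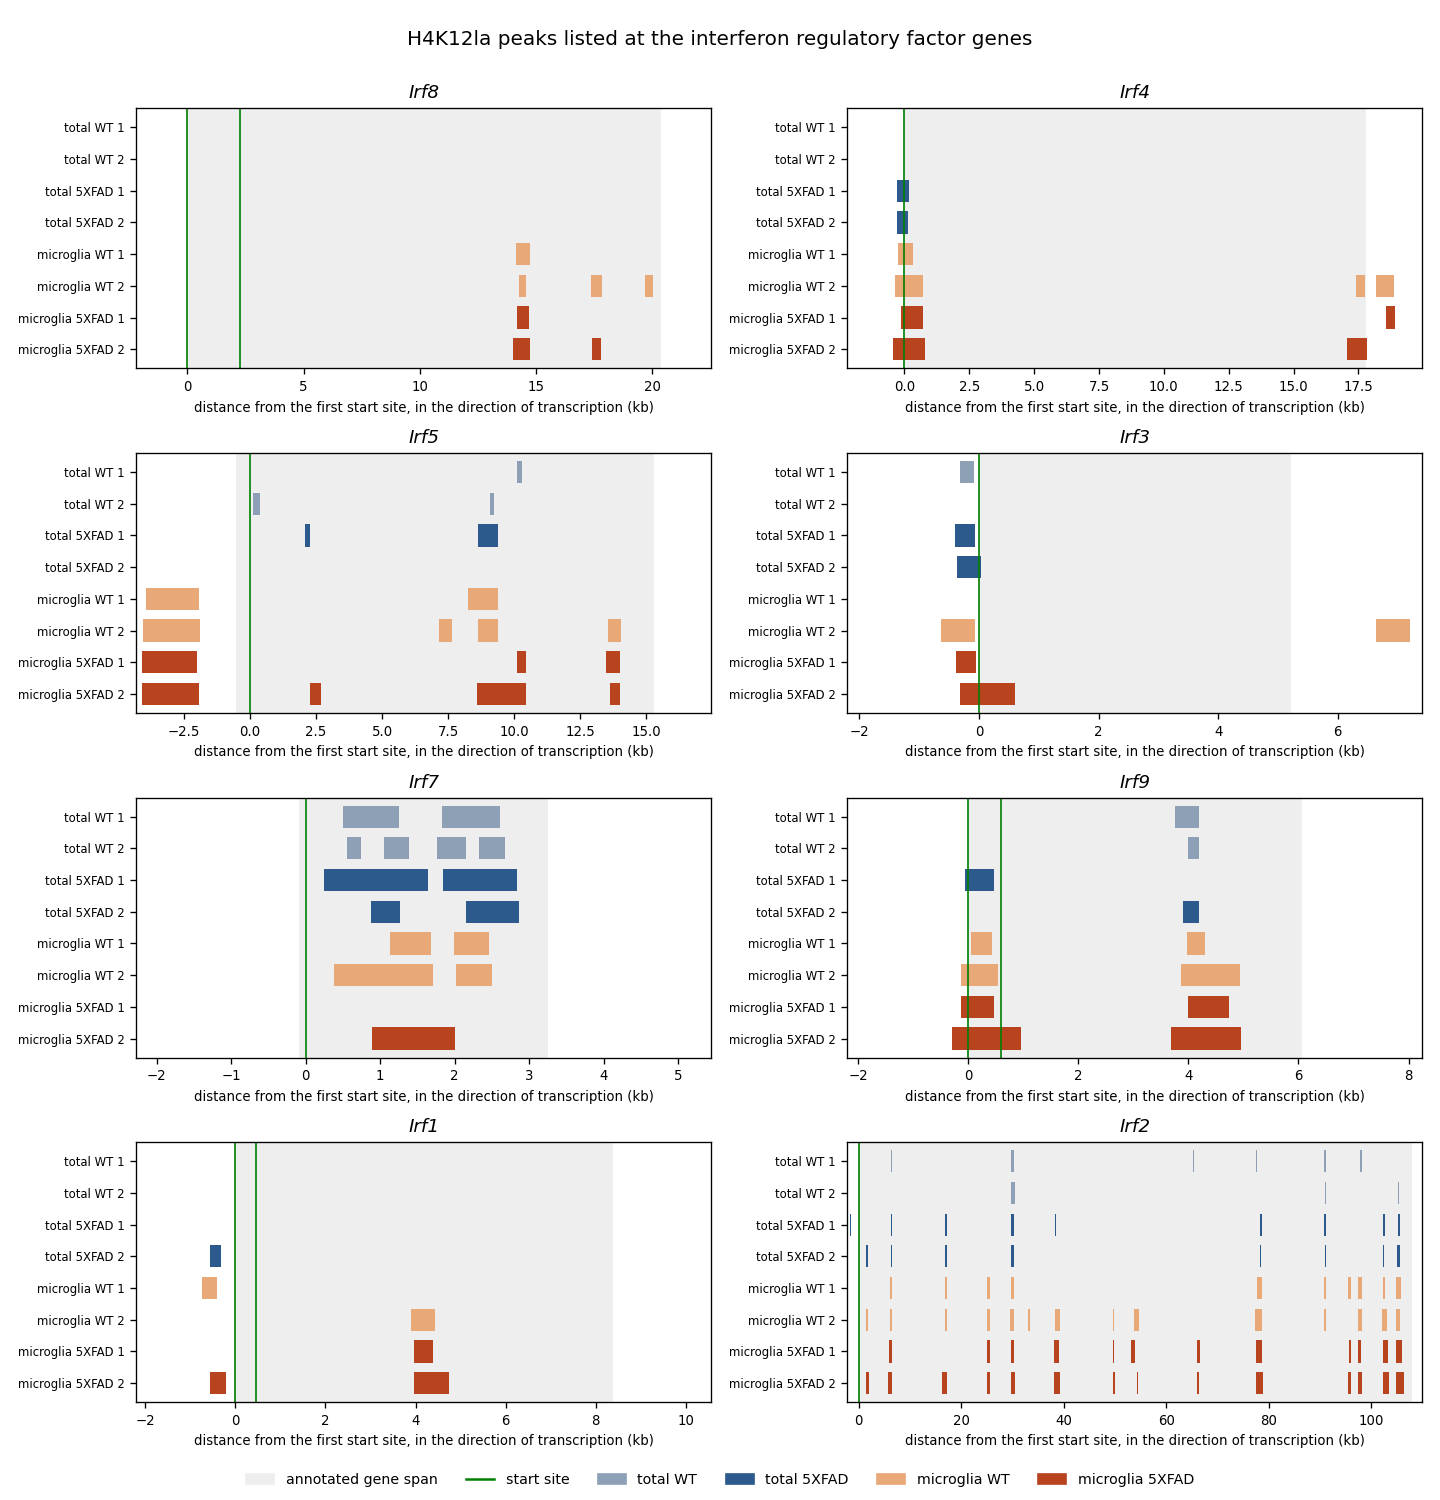
Listed H4K12la peaks (coloured bars, 1 row per library) at each gene, by distance from its first start site in kb along the direction of transcription; grey marks the annotated span and green lines the start sites. Peaks touching the gene span plus 2 kb are drawn. Peaks sit on or beside the start sites of Irf1, Irf3, Irf4 and Irf9, inside Irf7 and Irf8 and about -4.101 to -1.904 kb from the Irf5 start site. Total cells of WT 2 also have a peak beside the Irf5 start site.

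Covered bases, the part of a gene window that lies under listed peaks, were compared between the preparations. Microglia exceeded total cells without overlap at Irf1, Irf2, Irf4, Irf5, Irf8 and Irf9, 6 of 8 genes, against 28.1% of the 14445 coding genes with a peak, and 0 members were lower without overlap, against 2.49%. Each of the 6 had the smallest p that 4 libraries against 4 allow (exact two-sided permutation test, p = 0.0286), and after Benjamini-Hochberg adjustment over all 14445 genes it was 0.0935. No gene of the genome passed adjustment, while 4412 passed without it. The median difference was 1028 bases over the 8 members and 415 over all 14445 genes. Since wide microglial peaks raise covered bases at most genes, each value was also divided by the library's mean over all coding genes. On that scale 4 members were higher in microglia without overlap (Irf2, Irf5, Irf8 and Irf9), against 11.6% of genes, and Irf7 was lower, against 13.2%. In bulk total cells, fewer cells bearing the mark and less mark per cell cannot be told apart.

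**Figure D2:**
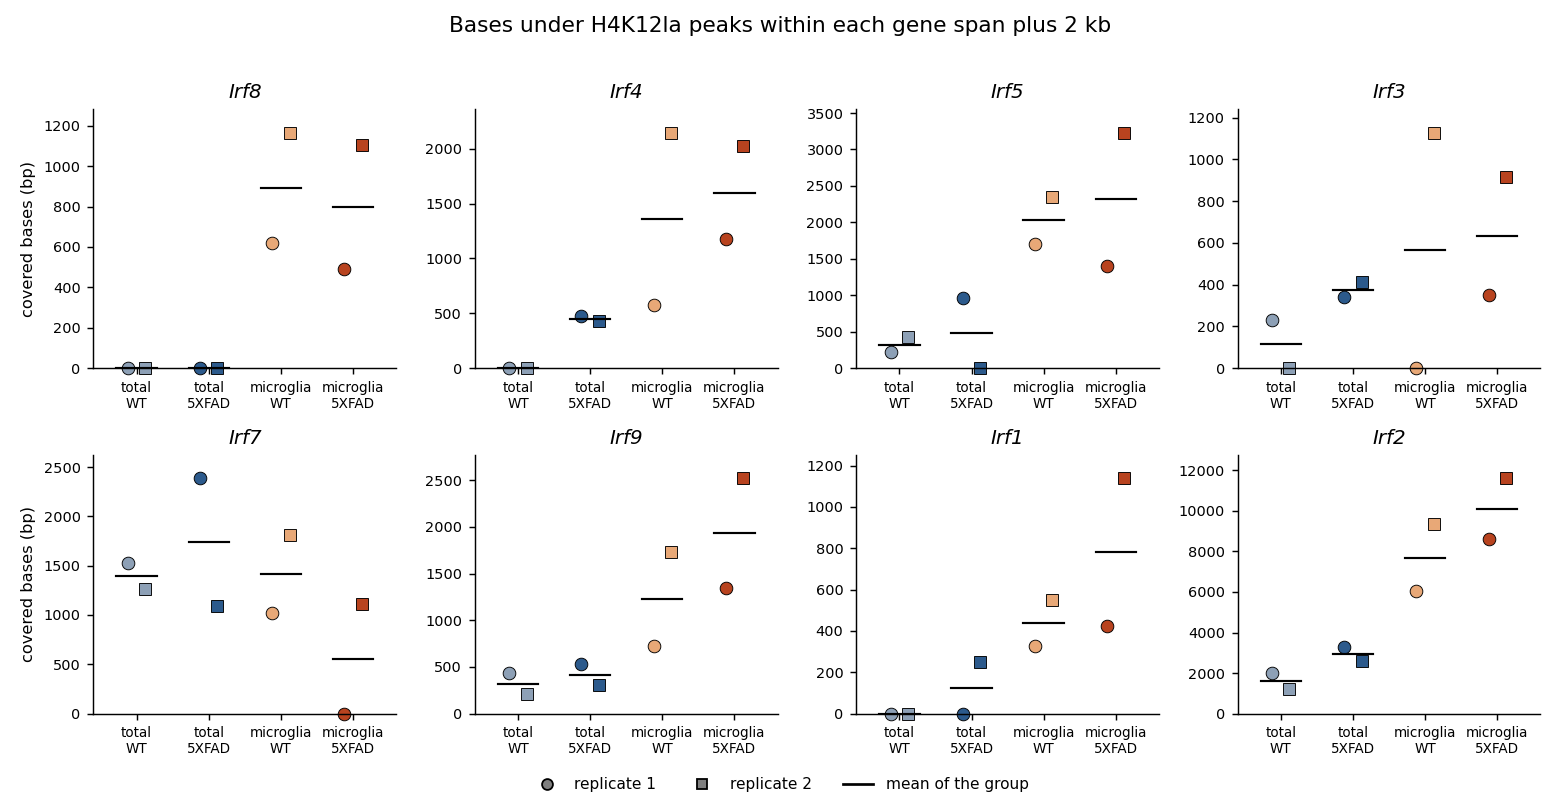
Covered bases (bp) in the gene span plus 2 kb, 1 point per library, circles for replicate 1 and squares for replicate 2, with a line at the mean of each group of 2. All microglia libraries lie above all total cell libraries for Irf1, Irf2, Irf4, Irf5, Irf8 and Irf9, and the axes differ between genes.

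**Figure D3:**
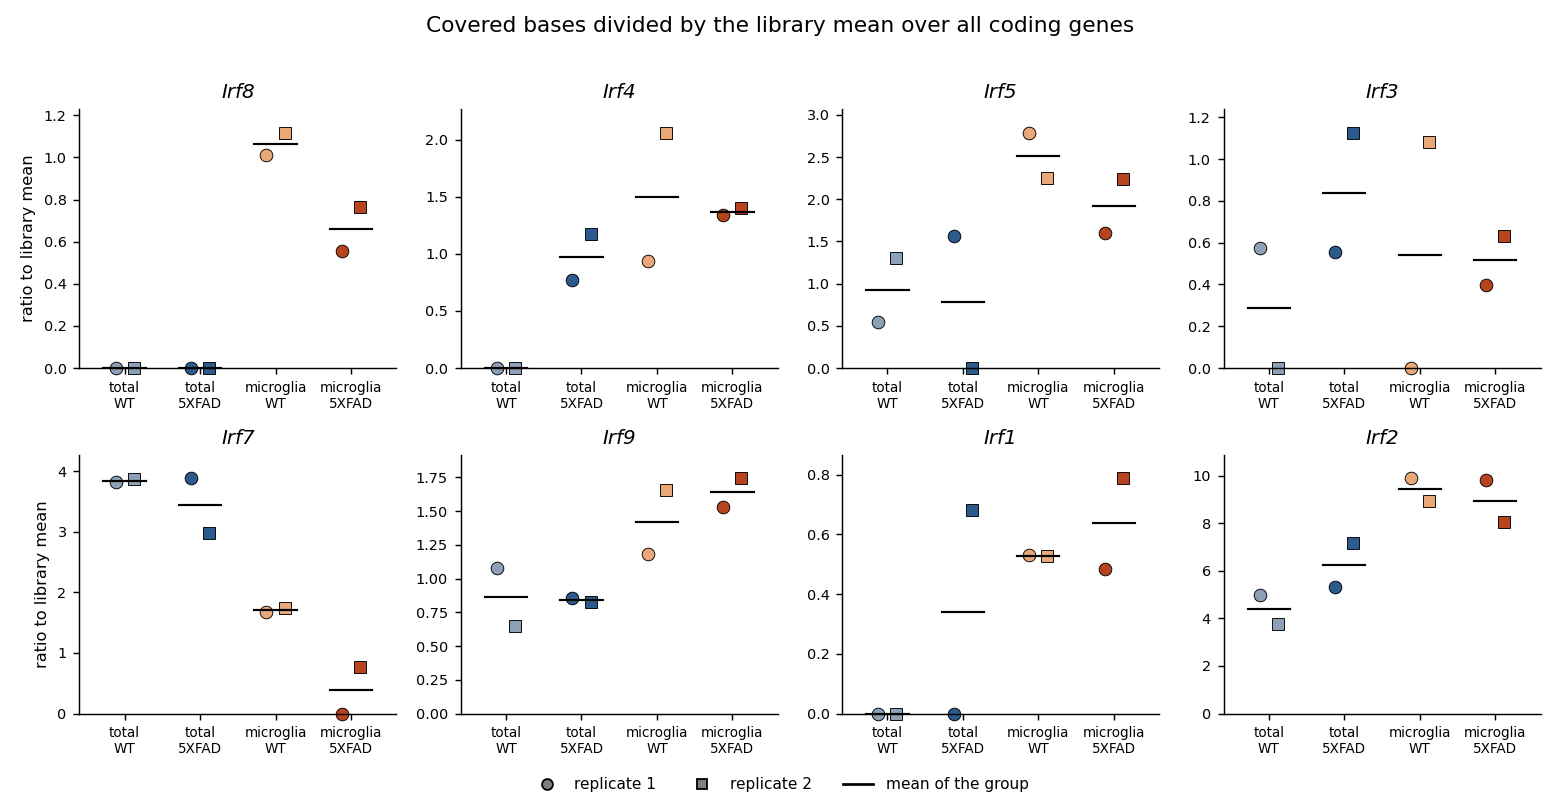
The same covered bases divided by the mean over all 21887 coding gene windows of the library, as a ratio in which 1 is that mean. Irf7 stands at 2.98 to 3.88 in the 4 total cell libraries and at 0 to 1.74 in the microglia libraries.

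Irf8 (gene 15900, chr8:120736358-120756694, plus strand) was marked in microglia alone, and inside the gene, not at its start. Covered bases were 619 and 1166 in the WT microglia pair, 489 and 1106 in the 5XFAD microglia pair, and 0 in each of the 4 total cell libraries. The preparations did not overlap (845 ± 341 against 0, SD, n = 4 each), while the 2 genotypes of microglia did. A peak in all 4 microglia and no total cell library was found for 1.2% of coding genes and for 1 of the 8 members. All 4 microglia libraries shared a region at 14032 to 14764 bp from the start site (chr8:120750390-120751122), with peaks of 315 to 733 bp at score percentiles of 30.5 to 58.2 within their lists. That pattern was held by 2 of the 37 regions, against 4.51% of all merged regions. A second region, at 17350 to 17851 bp, was listed in WT 2 and 5XFAD 2, and one at 19677 to 20025 bp in WT 2. No peak touched either annotated Irf8 start site or the bases between them.

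The surroundings of Irf8 held higher-scoring peaks than the gene, in a span of 100 kb on either side that was chosen after the peaks at the gene were seen. A region at 56.3 to 57.7 kb from the start site, inside the long non-coding RNA gene Gm33199, was listed in all 4 microglia libraries at score percentiles of 71.4 to 84.8 with widths of 1013 to 1383 bp. Of the total cell libraries, 5XFAD 1 had a 457 bp peak there at percentile 36.2. A region at -17.0 to -16.3 kb was listed in all 4 microglia and no total cell library (score percentiles 37.3 to 75.9). One at -21.2 to -20.1 kb was found in all 4 microglia libraries and in total cells of 5XFAD 2. Neither overlaps a window of another coding gene. Microglial peaks near -34 and -51 kb, at percentile 69.8 or higher in every microglia library, also had counterparts in 2 total cell libraries each. The opposite pattern was found at -77.9 to -77.1 kb, within 2 kb of the coding genes Emc8 and Gm27021. That region was listed in all 4 total cell and no microglia library (score percentiles 1.51 to 77.9).

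**Figure D4:**
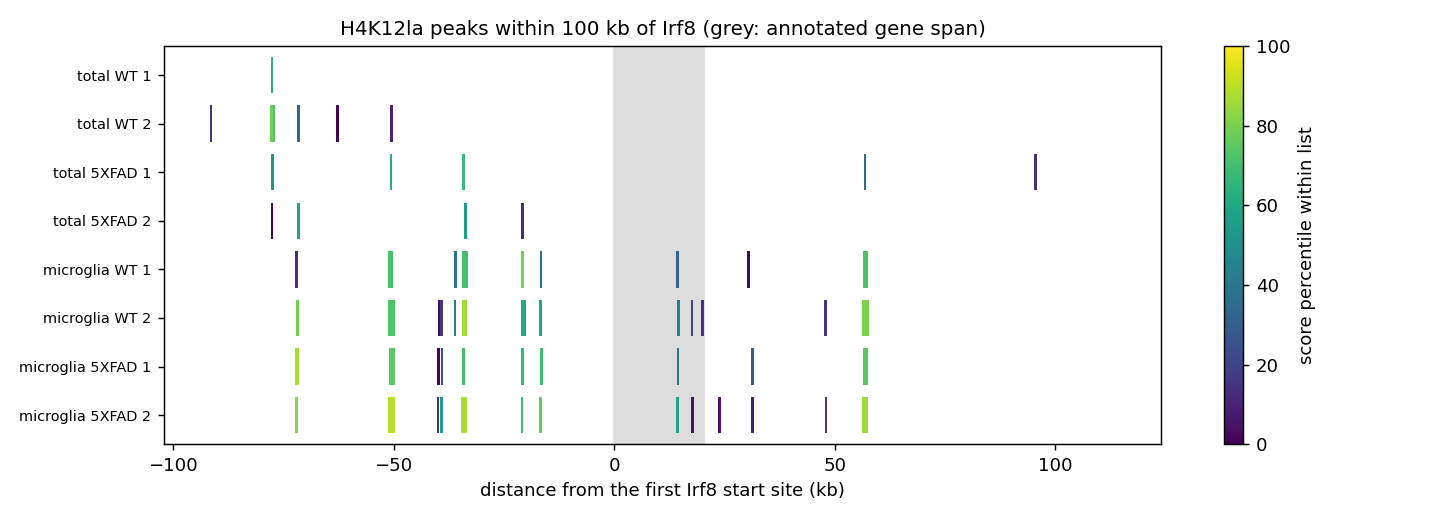
Peaks listed within 100 kb of the Irf8 span (grey), 1 row per library, by distance in kb from the first start site and coloured by score percentile within the list; narrow peaks are drawn at a minimum width to be visible. The 4 microglia rows share peaks at 14.0, 56.3 and -17.0 kb, the 4 total cell rows share a region at -77.9 kb, and the grey span holds no total cell peak.

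Irf4 (gene 16364, chr13:30749233-30766981, plus strand), which pairs with Spi1 as Irf8 does, was marked across its start site in 6 libraries. Covered bases were 575 and 2149 in the WT microglia pair, 1175 and 2026 in the 5XFAD microglia pair, 472 and 428 in 5XFAD total cells, and 0 in both WT total cell libraries. Microglia lay above total cells (1481 ± 743 against 225 ± 260, SD, n = 4 each), although the lowest microglia library was close to the highest total cell library. On the scaled ratio the preparations overlapped, at 1.43 ± 0.46 and 0.49 ± 0.58 (SD, n = 4 each; exact permutation p = 0.0571, adjusted p = 0.180). The merged start site region spanned -454 to 807 bp, under microglial peaks of 575 to 1262 bp and total cell peaks of 428 to 472 bp. Among total cells, Irf4 was the only one of the 8 genes listed for the 5XFAD pair but not for the WT pair, a pattern of 2.86% of coding genes. The reverse pattern was found for 0 members, against 1.6%. Regions at and just past the end of the gene, at 17049 to 17812 and 18181 to 18903 bp, were listed in 2 microglia libraries each and in no total cell library.

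Irf5 (gene 27056, chr6:29526130-29541869, plus strand), an activator of inflammatory cytokine genes downstream of Toll-like receptors, carried the highest-scoring peaks of the 8 genes. A region at -4101 to -1904 bp from its start site (chr6:29522524-29524721) had 1 peak in each microglia library, 2019 and 2138 bp wide in WT and 2100 and 2151 bp in 5XFAD. Their score percentiles were 97.7 and 98.6 for WT, then 99.2 and 99.0 for 5XFAD. The region covers the 3′ end of the long non-coding RNA gene Gm26627, transcribed on the same strand. No total cell peak reached the window there, but a 326 bp peak of 5XFAD 1 at percentile 36.2 lay inside the same region, at -3123 to -2798 bp and just outside the window. Covered bases in the window were 1706 and 2345 in the WT microglia pair, 1402 and 3231 in the 5XFAD microglia pair, 218 and 424 in WT total cells, and 961 and 0 in 5XFAD total cells. They did not overlap between preparations, in bases (2171 ± 809 against 401 ± 412) or as the scaled ratio (2.22 ± 0.49 against 0.85 ± 0.71, SD, n = 4 each; exact permutation p = 0.0286, adjusted p = 0.115). With the peak midpoint required inside the window, or with the gene span alone, the preparations overlapped (exact permutation p = 0.0571 in either case, n = 4 each). Within the gene, a merged region at 8232 to 10449 bp held peaks of 7 libraries, all but total cells of 5XFAD 2. Peaks of WT 1 total cells (10086 to 10303 bp) and 5XFAD 1 microglia (10086 to 10434 bp) formed a separate set. Only the 5XFAD 2 microglia peak (8606 to 10449 bp) joined it to the rest. Total cells of WT 2 also had a 251 bp peak at 117 to 367 bp (percentile 66.1). A region at 13459 to 14047 bp, in 3 microglia libraries, lies within 2 kb of Tnpo3 as well.

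**Figure D5:**
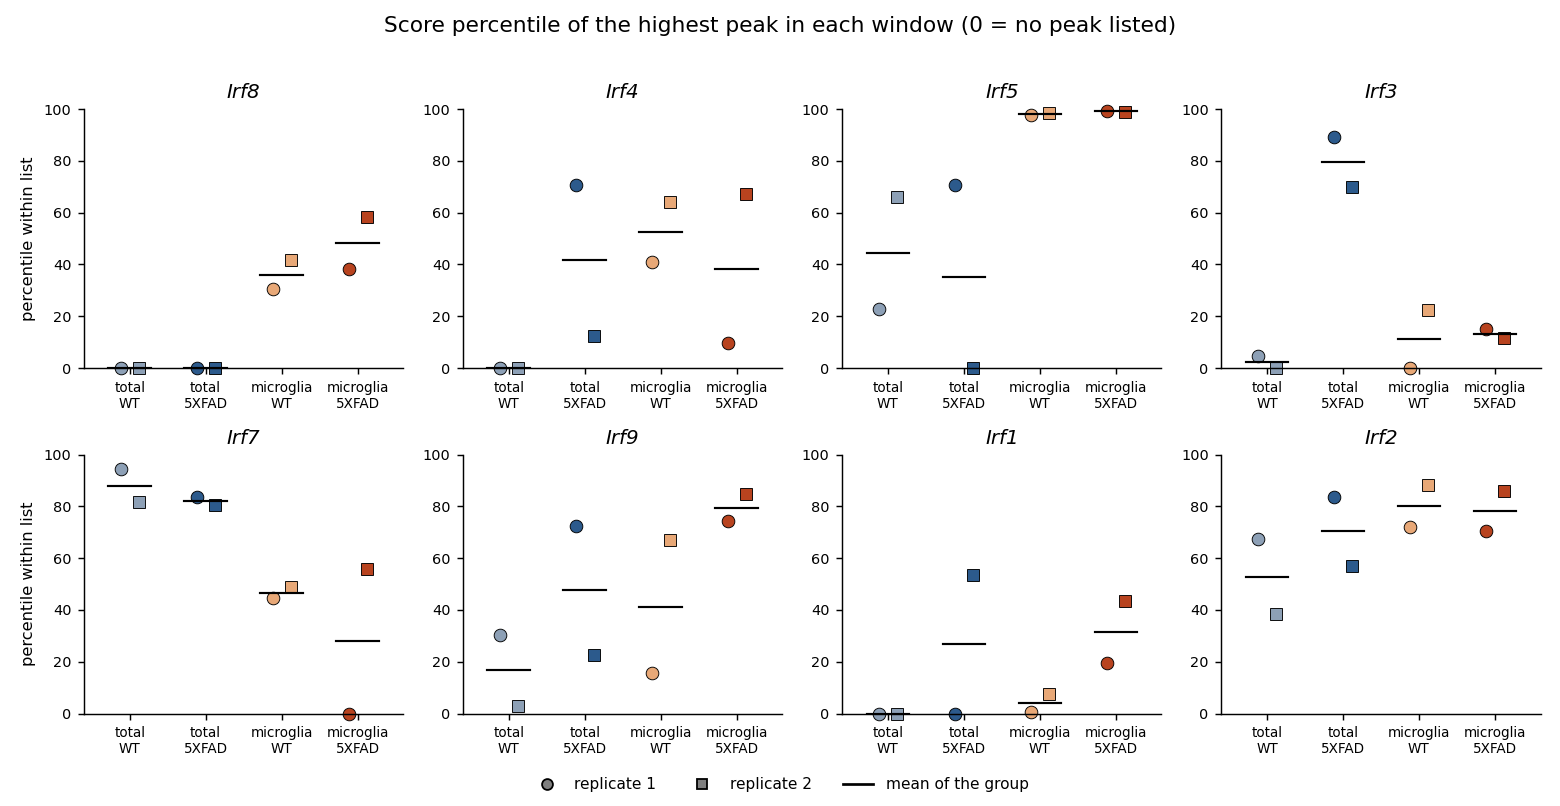
Score percentile within its list of the highest peak in each gene window, 1 point per library, with 0 where no peak was listed and a line at the group mean. Irf5 lies at 97.7 to 99.2 in microglia, and Irf7 lies at 80.6 to 94.3 in total cells and at 0 to 55.9 in microglia.

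Irf3 (gene 54131, chr7:44997648-45002848, plus strand), the constitutively present factor that starts the interferon beta response, was marked in both preparations. Its start lies 9 bp from that of the neighbouring gene Bcl2l12, transcribed the other way, so the peaks cannot be assigned to either gene. Covered bases were 0 and 1128 in the WT microglia pair, 348 and 915 in the 5XFAD microglia pair, 231 and 0 in WT total cells, and 340 and 411 in 5XFAD total cells. Microglia (598 ± 517) and total cells (246 ± 180, SD, n = 4 each) overlapped (exact permutation p = 0.286, adjusted p = 0.454). On the scaled ratio they stood at 0.53 ± 0.45 and 0.56 ± 0.46, with the opposite sign. The start site peak stood at percentiles of 89.1 and 70.04 in 5XFAD total cells and at 4.72 in total cells of WT 1. In the 3 microglia libraries that listed it, it stood at score percentiles of 11.5 to 22.3. A peak of WT 2 microglia at 6641 to 7207 bp lies in the window of Scaf1 as well.

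Irf7 (gene 54123, chr7:141263183-141266499, minus strand), the interferon-induced factor that amplifies type I interferon, was the only 1 of the 8 genes lower in microglia without overlap on the scaled ratio. Peaks covered 247 to 2858 bp from its start site, most of the 3.317 kb gene, and none reached the start site. Covered bases were 1529 and 1259 in WT total cells, 2388 and 1088 in 5XFAD total cells, 1020 and 1816 in the WT microglia pair, 0 and 1115 in the 5XFAD microglia pair. These values overlapped, at 1566 ± 577 in total cells and 988 ± 748 in microglia (SD, n = 4 each; exact permutation p = 0.343, adjusted p = 0.524). The scaled ratio did not, at 3.64 ± 0.44 in total cells and 1.05 ± 0.82 in microglia (SD, n = 4 each; exact permutation p = 0.0286, adjusted p = 0.115). Every total cell library had at least 2 peaks there, whose highest score percentile was 80.6 to 94.3. Microglia of 5XFAD 1 had no peak, and the other 3 microglia libraries reached percentiles of 44.5 to 55.9. The end of Irf7 lies 431 bp from that of Phrf1, and the merged region is within 2 kb of that gene.

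Irf9 (gene 16391, chr14:55603985-55610030, plus strand), the DNA-binding part of the ISGF3 complex, was marked in all 8 libraries but at different places. All 4 microglia libraries listed both a start site region (-289 to 964 bp) and an internal region (3681 to 4947 bp). Each total cell library listed only 1 of them, the start site in 5XFAD 1 and the internal region in the other 3. Peaks of the internal region scored low in total cells, at percentiles of 2.79 to 30.5, and stood at 8.89 to 62.5 in microglia. Those of the start site region stood at 3.77 to 84.7 in microglia and at 72.6 in total cells of 5XFAD 1. Covered bases were 723 and 1728 in the WT microglia pair, 1346 and 2521 in the 5XFAD microglia pair, 431 and 211 in WT total cells, and 528 and 301 in 5XFAD total cells. The preparations did not overlap in bases (1580 ± 752 against 368 ± 140) or as the scaled ratio (1.53 ± 0.25 against 0.85 ± 0.18, SD, n = 4 each; exact permutation p = 0.0286, adjusted p = 0.115). The start site region is within 2 kb of the end of Rnf31, a ubiquitin ligase gene that ends 310 bp upstream.

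Irf1 (gene 16362, chr11:53770014-53778374, plus strand), an interferon gamma-induced activator, had few peaks, and those of microglia were low-scoring. Covered bases were 325 and 549 in the WT microglia pair, 426 and 1139 in the 5XFAD microglia pair, 0 in both WT total cell libraries, and 0 and 249 in 5XFAD total cells. The preparations did not overlap in bases (610 ± 365 against 62.3 ± 125) but did on the scaled ratio (0.58 ± 0.14 against 0.17 ± 0.34, SD, n = 4 each; exact permutation p = 0.114, adjusted p = 0.294). An upstream region at -741 to -204 bp was listed in 1 WT microglia, 1 5XFAD microglia and 1 5XFAD total cell library. An internal region at 3893 to 4753 bp was listed in 3 microglia libraries and no total cell library. Highest percentiles in microglia were 0.726 and 7.45 in WT and 19.4 and 43.3 in 5XFAD libraries, so the peak of WT 1 was near the lowest score listed. The only total cell peak, of 5XFAD 2, stood higher within its list, at percentile 53.5.

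Irf2 (gene 16363, chr8:46739745-46847458, plus strand), which can oppose Irf1 at shared sites, carried peaks along its whole length and none on its start site. Its window held 10 and 14 peaks in WT microglia, 12 and 14 in 5XFAD microglia, 6 and 3 in WT total cells, and 9 and 8 in 5XFAD total cells. Covered bases were 6047 and 9335 in the WT microglia pair, 8614 and 11618 in the 5XFAD microglia pair, 1999 and 1229 in WT total cells, and 3271 and 2614 in 5XFAD total cells. The preparations did not overlap (8904 ± 2295 against 2278 ± 871), and the scaled ratio was 9.17 ± 0.87 against 5.31 ± 1.40 (SD, n = 4 each; exact permutation p = 0.0286, adjusted p = 0.115). The long window raises these counts, and peaks covered 7.97% of it in microglia, within the 3.47% to 15.7% of the 8 members. The region at 29483 to 30578 bp (chr8:46769228-46770323) was the only one of the 37 found in all 8 libraries. The region at 25072 to 25707 bp (chr8:46764817-46765452) was found in all 4 microglia and no total cell library.

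Between genotypes, 0 of 8 members had higher or lower covered bases without overlap in 5XFAD than in WT microglia, where 28.9% and 2.7% of all genes did. A peak in 5XFAD microglia 1 and 2 alone, or in WT microglia 1 and 2 alone, was found for 0 members each, against 2.81% and 0.498% of coding genes. On the scaled ratio Irf5, Irf7 and Irf8 were lower in 5XFAD microglia without overlap, 3 of 8 genes against 16.3%, and 0 were higher, against 19.6%. In total cells, Irf2, Irf3 and Irf4 had more covered bases in 5XFAD without overlap, 3 of 8 genes against 25.1%, and 0 had fewer, against 8.54%. Irf3 overlapped on the scaled ratio and over the gene span alone, and Irf4 overlapped with scores of at least 50. That left 2 of 8 higher on the scaled ratio, against 16.7%, and 0 lower, against 18.5%. No member was higher or lower in both preparations, against 8.2% and 0.332% of genes. Over both preparations the exact two-sided permutation test of genotype within preparation gave p from 0.167 for Irf2 to 0.667 for Irf5 and Irf8 (adjusted p 0.724 to 0.926). It cannot go below 0.0556, and 2 against 2 cannot go below 0.333. In total cells, the summed covered bases of markers of several cell types were also higher in 5XFAD. Gene by gene, without overlap, 2 of 8 microglial, 2 of 4 vascular and 1 of 4 astrocyte markers were higher, against 25.1% of genes. Of the 8 microglial and of the 6 neuronal markers, 1 each was lower, against 8.54%. The 8 microglial markers summed to 523 and 1422 covered bases in WT and to 4470 and 2687 in 5XFAD libraries, with 1, 3, 5 and 3 of them bearing a peak and Aif1, C1qa and C1qb at 0 in all 4. The 4 vascular markers summed to 922 and 458 in WT and to 5553 and 2823 in 5XFAD libraries, and the 4 astrocyte markers to 2057 and 940 and to 4120 and 2359. The 6 neuronal markers overlapped, at 3570 and 2890 and at 3238 and 1191. The part of these cell types in the 3 genes was not tested. The counts of members higher or lower in 5XFAD changed with single libraries left out, in total cells and in microglia. Such counts rest on 2 libraries against 1, and the share of all genes was not computed for them. The 5XFAD 1 total cell list was also the longest of the 4.

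Other genes of the interferon pathway are described here by counts, to be read beside the 26.7% of all coding genes with a peak in all 8 libraries and the 28.1% of genes with a peak that were higher in microglia without overlap. All 6 Janus kinase and STAT genes had a peak in all 8 libraries, and 4, Jak1 and Tyk2 among them, had more covered bases in microglia without overlap. For Tyk2, a kinase bound to the type I interferon receptor, these were 1647 ± 621 in microglia and 476 ± 213 in total cells (SD, n = 4 each). Stat2, a partner of Irf9, overlapped, at 1823 ± 705 and 925 ± 609 (SD, n = 4 each). Of 5 ligand and receptor genes, Ifnar1, Ifnar2 and Ifngr1 had a peak in all 8 libraries and Ifnb1, the interferon gene that Irf3 and Irf7 induce, in none. 3 of these 5 were higher in microglia without overlap, Ifnar2, Ifngr1 and Ifngr2. Among 16 sensors, adaptors and kinases that act before IRF proteins, 9 had a peak in all 8 libraries and 6 were higher in microglia without overlap. Tlr7, a receptor for single-stranded RNA that signals to Irf5 and Irf7, was the only one with a peak in all 4 microglia and no total cell library (1961 ± 872 covered bases).

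Of 10 partner factors and cofactors, 5 were higher in microglia without overlap and 5 had a peak in all 8 libraries. Spi1, the PU.1 gene whose product pairs with Irf8 and Irf4, had 7676 ± 1716 covered bases in microglia and 725 ± 328 in total cells (SD, n = 4 each). Ikzf1 had 8995 ± 2700 and 1000 ± 902. Of 18 matched IRF target effectors, 12 had a peak in all 8 libraries, 8 were higher in microglia without overlap and Cxcl10 had no peak in any library. The interferon-induced genes Ifit1 (1514 ± 164 in microglia, 1220 ± 500 in total cells), Ifit2 and Ifit3 overlapped between preparations, while B2m (1810 ± 412 against 664 ± 160) did not. No gene of these lists was lower in microglia without overlap.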

How the data were processed

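For each library the deposited file held peaks with chromosome, start, end and a whole-number score, made by the authors, whose unit the file does not state. The submitters' processing notes name fastp 0.19.6, deepTools, Bowtie2 and the build GRCm38 (mm10). How peaks were called, and against which control, is not given in the sources used here. Starts were read as 0-based and printed 1-based. The lowest deposited score was 20 in every list. A score was used only as a percentile, its middle rank within the list. Groups and replicate numbers came from sample titles.

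Covered bases were summed over RefSeq spans (GRCm38.p6) plus 2 kb for 21887 coding genes. Exact permutation tests used 70 assignments of 4 and 4 libraries, or 36 of genotype within preparation, with Benjamini-Hochberg adjustment over 14445 genes with a peak. A gene was counted as higher or lower where groups did not overlap. Start sites and strand came from the promoter table. The code (Python 3.11.15, numpy 2.4.6, pandas 2.3.3) was tested on simulated data. The 8 genes and the lists were chosen with earlier results of these data known. The genes named are the 8 members, listed pathway genes found in 1 preparation, in all 8 libraries or in none, and near neighbours. Others (Jak1, Tyk2, Stat2, Spi1, Ikzf1, B2m, the Ifit genes and receptors) were named after their values were seen. Some listed genes are not reported here. Any 2 lists shared at most 193 identical intervals.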

Additional observations from a re-analysis of the deposited data

Results flagged for a closer look

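The covered bases of Irf1 in total cells stood out because 1 of the 4 libraries lay apart from the rest. Total cells of 5XFAD 2 had 249 covered bases and the other 3 libraries had none. A gap of this kind arises whenever 1 library lists a peak and the other 3 list none, so the usual rate of about 1 in 20 groups by chance does not apply to it.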

How the results depend on the processing

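Beside the counts of members higher or lower stands the share of all genes with a peak under the same setting. That share was not computed with a library left out, nor under other settings for genes with a peak in all 8 libraries. The 6 genes higher in microglia without overlap (28.1%) became 3 with 2 kb around both gene ends (Irf4, Irf5, Irf9; 22.3%) and 1 with 2 kb around start sites (Irf4; 21.9%). They became 3 with scores of at least 50 (Irf2, Irf5, Irf8; 28.7%) and 2 with the higher-scoring 50% of peaks (Irf2, Irf5; 21.5%). The gene span alone left 4 (25.3%), without Irf5 and Irf1 (440 bases, exact permutation p = 0.143). The span plus 5 kb left 5 (28.8%), without Irf4 (exact permutation p = 0.0571), and the midpoint rule left 5 (27.8%), without Irf5. Irf2, Irf5, Irf8 and Irf9 remained with equal numbers of peaks (27.9%) and on the scaled ratio (11.6%), where 1 gene (Irf7) was lower (13.2%). Irf3 reversed to -187.75 bases with scores of at least 50, the higher-scoring 50% and equal numbers of peaks, and to -0.0362 on the scaled ratio. Irf1 reversed to -62.3 with the higher-scoring 50% and Irf5 to -6.5 around start sites. Genes with a peak in all 8 libraries fell from 2 to 1 around gene ends, and to 0 around start sites, with scores of at least 50 and with the higher-scoring 50%. With 5XFAD against WT, the microglia count was 1 higher with the higher-scoring 50% (Irf2; 24.8%), 1 lower around start sites (Irf5; 3.98%) and 3 lower on the scaled ratio (Irf5, Irf7, Irf8; 16.3%). The total cell count of 3 higher (25.1%) became 1 with the higher-scoring 50% (Irf3; 23.1%) and 2 with scores of at least 50 (Irf2, Irf3; 22.8%), the gene span alone (Irf2, Irf4; 23.7%) and the scaled ratio (Irf2, Irf4; 16.7%). The cause of these changes was not tested, beyond fewer bases or peaks entering.

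Leaving out each library in turn gave 6 to 6 genes higher in microglia and 2 to 3 with a peak in all libraries kept. Genotype counts were less stable. They changed with the library left out in microglia, in total cells and in both preparations together. These genotype counts rest on 2 libraries against 1 in a preparation and have no test. The share of all genes was not computed for them, so they are not read as a result about the members. Deviations of same-numbered libraries correlated at -0.0226 to 0.0963 over genes. Such a correlation cannot show whether same-numbered libraries were handled together, which the labels do not state. Replicate 2 had the longer list in both microglia pairs, and replicate 1 in both total cell pairs. With the replicate block, 6 genes were higher in microglia (29.6% of all genes). With it, 2 (Irf2 and Irf9) were higher in 5XFAD in both preparations (21.6%), against 0 without it (8.2%). The blocked exact permutation test of preparation cannot go below p = 0.0556, which those 6 genes reached.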

Other observations

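The surroundings of Irf1, within 100 kb, held wider and higher-scoring peaks than the gene, as at Irf8. A region at 15.6 to 17.0 kb from its start site, inside the long non-coding RNA gene Gm12216, was listed in all 4 microglia libraries at score percentiles of 82.8 to 96.9 with widths of 1135 to 1476 bp. Total cells of 5XFAD 1 listed a 719 bp peak there at percentile 61.1. A region at 23.9 to 26.5 kb held peaks of 2442 to 2529 bp in the 4 microglia libraries (score percentiles 63.2 to 96.3) and peaks of 179 to 249 bp in both 5XFAD total cell libraries. A region at -7.42 to -5.50 kb was listed in all 8 libraries. Over all 8 genes, 127 regions lay within 100 kb outside the windows. Of these 127, 13 were in all 8 libraries, against 7.19% of all merged regions of the genome. Another 6 were in all 4 microglia and no total cell library, against 4.51%. The distance of 100 kb was chosen after the data were seen.

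The pattern of highest score percentiles over the 8 libraries was compared with that of every coding gene by the mean absolute difference. Nearest to Irf8 were Zfp428, Gm5127 and Hs6st2, at 2.59, 2.65 and 2.65 percentile points. Nearest to Irf5 were Nupr1 at 4.84 and the neighbouring chemokine genes Ccl3 and Ccl4 at 7.74. Nearest to Irf1 were Tmem156 at 3.79, Ciita at 4.02 and Shisal2a at 4.25, and nearest to Irf7 was Ube2w at 5.84. Bcl2l12 equalled Irf3 at 0, since its window holds the same highest peaks.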
